A study of Mus musculus with 6 samples.

Results

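Potassium channel subunits were examined in isolated hippocampal cells of transgenic and control mice. The members were the genes whose symbol in the array annotation consists of Kcn, letters and a number, taken from probe sets with exactly 1 symbol. They numbered 80 of the 18193 genes with 1 symbol and were covered by 158 of 45037 probe sets. Each gene was represented by its probe set of highest mean log2 intensity over the arrays, and 43 of the 80 passed a filter on dim probe sets and were tested. The choice by symbol used no measured value, apart from the choice of 1 probe set per gene.

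The transgenic group comprised 2 mice with 3 arrays, described as overexpressing HuD, an RNA-binding protein of neurons encoded by Elavl4. The control group comprised 2 mice with 3 arrays, with no further genotype in the labels. In both groups mouse 1 had 1 array and mouse 2 had 2 arrays, and total RNA of isolated hippocampal cells, which the labels call DGCs without spelling the term out, was measured on Affymetrix mouse expression arrays. No source used here gives the strain, sex or age of the mice, or the promoter of the transgene. The tag re-LCM, which the labels do not explain, is in the title of 1 array of control mouse 1, 1 of transgenic mouse 1 and 1 of transgenic mouse 2, where it marks array 1. The titles number the 2 untagged control arrays 1 and 2, while the descriptions give both to control mouse 2. The descriptions were followed here.

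Values are linear probe set intensities, in arbitrary units, in the order mouse 1, mouse 2 array 1, mouse 2 array 2. Differences are log2 of transgenic over control mouse means, with values under an intensity of 10.1 set to that floor. A gene was called when the adjusted p of limma, Benjamini-Hochberg over all 14678 genes and unnamed probe sets tested, was under 0.05. In such bulk samples, fewer cells of a type and less RNA per cell cannot be told apart. Genes known from dentate granule cells, Prox1, Dsp, Tdo2, Calb1 and C1ql2, were above the floor on all 6 arrays. Their summed intensity was 15310 to 16270 on the transgenic arrays and 15450 to 18050 on the control arrays. Elavl4 had 79.4, 93.3 and 60.1 on the transgenic arrays, against 122, 92.8 and 63.7 on the control arrays, and its difference was -0.33 (SE 0.27, limma adjusted p = 0.999). The probe set thus did not read higher in the group labelled transgenic, and whether it matches the transgene was not examined.

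Potassium channels let potassium leave or enter the cell and set how easily a neuron fires. Voltage-gated Kv channels end the action potential and delay or space the next one, channels opened by calcium or sodium couple firing to ion load, and inward rectifiers and tandem-pore leak channels hold the membrane near rest. Auxiliary subunits bind these channels and alter their gating or transport. Granule cells are known for a very negative resting potential and sparse firing. Kcna1, which encodes Kv1.1, is known from earlier work as a HuD-bound mRNA in hippocampal neurons.

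None of the 43 genes was called, and their differences lay on both sides of 0. In the transgenic mice 21 were higher and 22 lower, with a median of -0.01 and a range of -0.84 to 0.40. Over all items tested, 50.5% were higher and the median was 0.0026. Limma called 0 of the 43 (smallest adjusted p = 0.999), against 0% of all items tested, and 1 of 43 had an unadjusted p under 0.05, against 4.31% of all. All 3 transgenic arrays lay above all 3 control arrays for 2 members, against 3.86% of all items. They lay below for 2 members, against 4.22%. Together that is 4 of 43 (9.30%), beside 8.07% of all items, so the members' count was near the background. With any 1 mouse or array left out the count of members without overlap was 5 to 20, since fewer arrays overlap less often, and the share of all items was then 15.7% to 48.9%.

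The 4 members without overlap were Kcna2 and Kcnip4, higher on all transgenic arrays, and Kcnmb2 and Kcnu1, lower on all of them. Of these, 3 have a 300-base promoter window around the start of the gene in the RefSeq set for GRCm38.p6. The windows are shown 5′ to 3′, with CG dinucleotides in capitals, because the genes differ in this feature. Kcna2 holds 31, Kcnip4 7 and Kcnmb2 9. Kcnip4 has 2 windows listed, of which the first is given. Kcna2 and Kcnip4, which differ in the same direction, thus lie far apart in CG count.
Kcna2, chr3:107101317-107101616, plus strand: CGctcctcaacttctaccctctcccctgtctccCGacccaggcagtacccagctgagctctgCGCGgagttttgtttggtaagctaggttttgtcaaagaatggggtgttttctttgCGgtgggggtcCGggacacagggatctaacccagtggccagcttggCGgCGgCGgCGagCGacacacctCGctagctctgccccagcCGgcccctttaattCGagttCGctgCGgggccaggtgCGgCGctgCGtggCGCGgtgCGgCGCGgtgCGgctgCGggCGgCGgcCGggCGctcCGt
Kcnip4, chr5:49285610-49285909, minus strand: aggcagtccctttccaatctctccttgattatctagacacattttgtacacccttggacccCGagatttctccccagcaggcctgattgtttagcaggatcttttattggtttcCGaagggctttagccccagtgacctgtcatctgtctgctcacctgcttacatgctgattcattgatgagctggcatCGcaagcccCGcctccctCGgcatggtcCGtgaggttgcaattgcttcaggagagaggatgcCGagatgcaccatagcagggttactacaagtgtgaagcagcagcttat
Kcnmb2, chr3:31902453-31902752, plus strand: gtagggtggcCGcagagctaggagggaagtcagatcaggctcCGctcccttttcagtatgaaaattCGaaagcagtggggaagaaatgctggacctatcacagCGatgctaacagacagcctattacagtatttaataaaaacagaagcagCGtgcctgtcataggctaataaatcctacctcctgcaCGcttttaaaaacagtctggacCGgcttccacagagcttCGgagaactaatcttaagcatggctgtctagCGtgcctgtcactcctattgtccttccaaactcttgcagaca

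**Figure D1:**
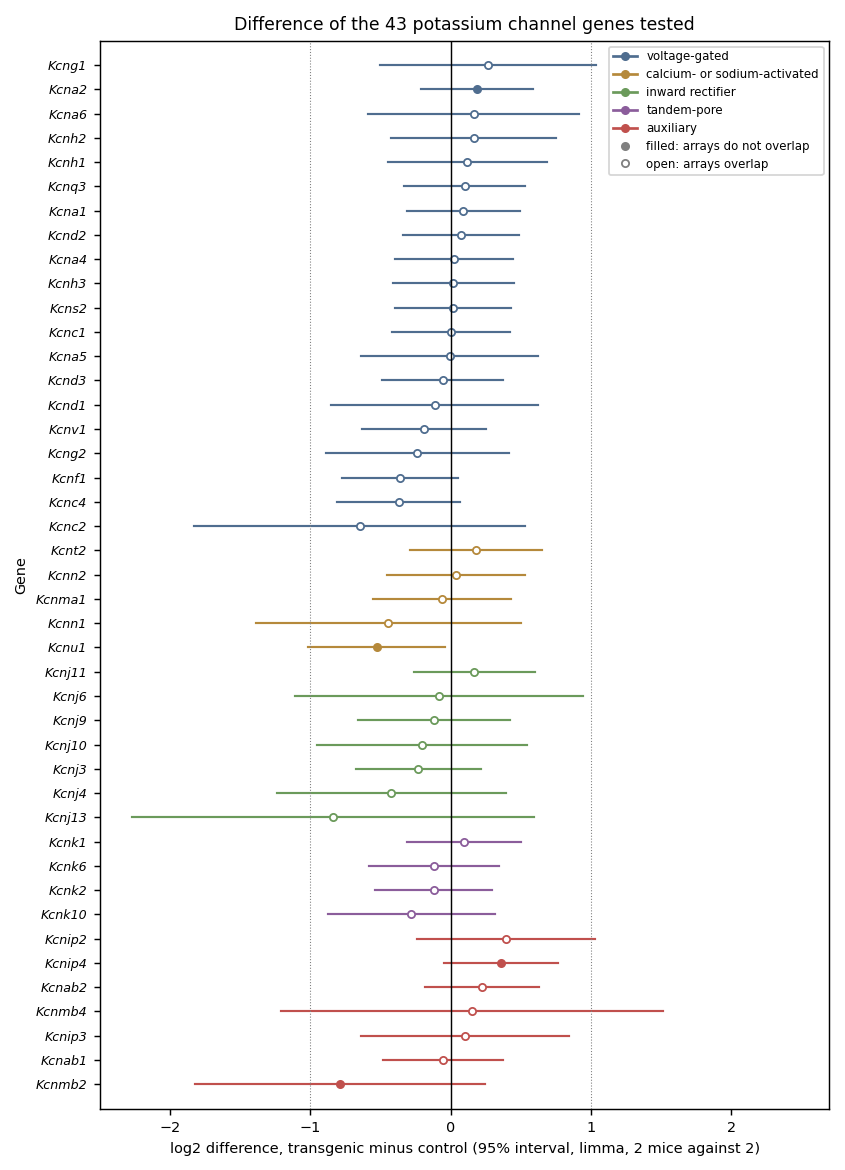
Log2 difference, transgenic minus control, of the 43 potassium channel genes tested (x axis), by subunit class, with the 95% interval of the limma fit on 2 mice against 2. Filled points mark the 4 genes whose arrays did not overlap, dotted lines mark a doubling and its inverse, and only the interval of Kcnu1 leaves out 0.

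The intervals show what size of change these mice allowed. For 33 of the 43 genes (76.7%) the 95% interval lay within 1 log2 unit of 0 on both sides, beside 77.0% of all items tested. The median absolute difference between groups was 0.16 for the members, while the 2 arrays of transgenic mouse 2 differed by a median of 0.30 and those of control mouse 2 by 0.22. For 36 of 43 members (83.7%) a gap between arrays of the same mouse exceeded the difference between groups, beside 84.7% of all items. Each such gap is between single arrays and each group difference between averages, and the gap in transgenic mouse 2 also sets a re-LCM array against an untagged one. The median deviation of the members from their own means was -0.0079 to 0.01 on the transgenic arrays and 0.02 to 0.05 on the control arrays. All control arrays thus lay above all transgenic arrays in this median. The mean deviation overlapped, at -0.075 to 0.022 on the transgenic and 0.0067 to 0.054 on the control arrays. Over all items the median deviation was 0.0080 to 0.018 on the transgenic and -0.00014 to 0.025 on the control arrays.

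**Figure D2:**
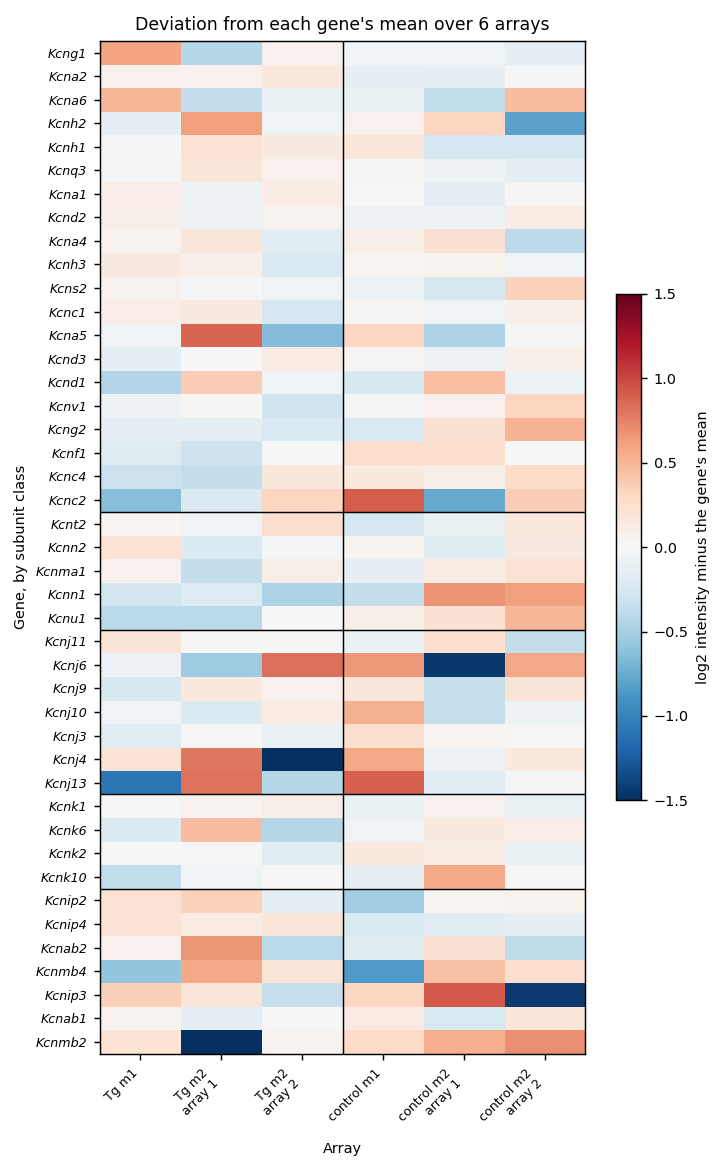
Log2 intensity minus the gene's mean over 6 arrays for the 43 genes tested (rows, by subunit class, in the order of the difference plot) on the 3 transgenic arrays (left) and 3 control arrays (right), with colours saturating at 1.5 log2 units. Single arrays stand out for some genes, as for Kcnmb2 on transgenic mouse 2 array 1, where the reading was under the floor.

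Voltage-gated subunits formed the largest class, with 20 of 31 tested, 12 higher and 8 lower (median 0.02). The Kv1 gene Kcna1, which limits repetitive firing, had 1416, 1254 and 1426 on the transgenic arrays. The control arrays gave 1318, 1203 and 1342. The groups overlapped, and the difference was 0.09 (95% interval -0.31 to 0.49, limma adjusted p = 0.999). Its 2 other probe sets that passed the filter gave -0.03 each. Kcna2, a Kv1 partner of Kcna1 in axons, had 603, 604 and 648 on the transgenic arrays, against 530, 532 and 565 on the control arrays. All transgenic arrays were thus higher, by 1.14-fold, but the difference of 0.19 (SE 0.15) was not called (limma adjusted p = 0.999). A second Kcna2 probe set overlapped and gave -0.0045. Kcna2 differed by 0.19 within the re-LCM arrays and by 0.24 within the other arrays.

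The A-type subunit Kcnd2, which encodes the Kv4.2 channel of dendrites, had 2183, 1939 and 2121 on the transgenic arrays and 1932, 1947 and 2208 on the control arrays. The 2 groups covered nearly the same range, with a difference of 0.07 (95% interval -0.34 to 0.49). The 3 Kcnd2 probe sets that passed the filter ranged from -0.22 to 0.07. Its relative Kcnd3 gave -0.06 at the brightest probe set, and Kcna4, an A-type Kv1 subunit of axons, gave 0.02. The M-current gene Kcnq3, which holds neurons below threshold, had a difference of 0.10 (SE 0.16). Its dimmer probe set read 135, 122 and 126 on the transgenic arrays, against 102, 99.5 and 114 on the control arrays, without overlap and at 0.31. Kcnc1, a Kv3 subunit of fast repolarisation, gave 0.0013 at its brightest probe set, while its other 3 ranged from -0.25 to 0.61.

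The 2 voltage-gated genes of smallest p were lower in the transgenic means. Kcnc4, a Kv3 subunit, had 366, 356 and 515 on the transgenic arrays, against 507, 485 and 553 on the control arrays. One transgenic array, array 2 of mouse 2, lay inside the control range. The difference was -0.37 (95% interval -0.81 to 0.07, limma adjusted p = 0.999), with -0.49 within the re-LCM arrays and -0.0068 within the other arrays. Kcnf1, a silent subunit that forms channels only together with Kv2 subunits, had 102, 93.8 and 115.5 on the transgenic arrays. Its control arrays gave 139, 137 and 115.5, so the groups met at their edges. The Kcnf1 difference was -0.36 (SE 0.16, limma adjusted p = 0.999), with -0.51 within the re-LCM arrays and -0.12 within the others. Among the other silent subunits Kcns2 gave 0.02, Kcnv1 -0.19, Kcng2 -0.24 and Kcng1 0.27. A dim Kcnv1 probe set that did not pass the filter read 12.2, 16.7 and 10.2 on the transgenic arrays. Its control arrays gave 68.1, 35.7 and 60.8, without overlap. Its difference was -2.16 in a fit without the filter (limma unadjusted p = 0.0044, adjusted p = 0.554). Its lowest transgenic value lay just above the floor of 10.1. The remaining Kcnv1 probe set, also dim, overlapped and gave -0.67. Of the ether-a-go-go genes, Kcnh1 gave 0.12, Kcnh2 0.16 and Kcnh3 0.02. A Kcnh3 probe set of nearly the same mean log2 intensity, 6.748 against 6.752, gave -0.40, and another that passed gave 0.24.

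**Figure D3:**
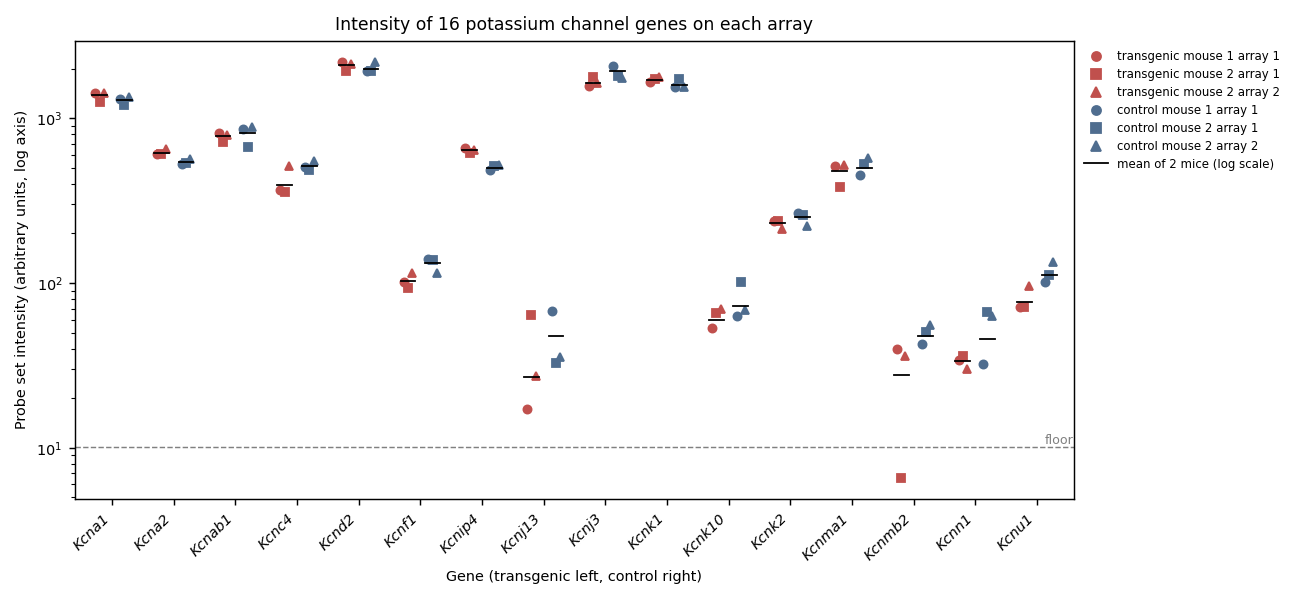
Probe set intensity on a log axis of the 16 genes given array by array (x axis), with transgenic arrays left in red and control arrays right in blue, bars for the mean of 2 mice and the floor as a dashed line. The groups separate for Kcna2, Kcnip4, Kcnmb2 and Kcnu1 and overlap for the other 12.

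Subunits were put into classes by the letters after Kcn. The class activated by calcium or sodium had 5 of 8 genes tested, 2 higher and 3 lower (median -0.06). That class took in Kcnu1 by its letters alone, whatever opens its channel. Kcnu1, which encodes a relative of the BK channel known from sperm, had 72.0, 71.8 and 95.3 on the transgenic arrays. The control arrays read 101, 112 and 134. All transgenic arrays were below all control arrays, at 0.69-fold. The difference of -0.53 (95% interval -1.02 to -0.04) had the smallest p of the 43 (limma unadjusted p = 0.0396, adjusted p = 0.999). It was -0.49 within the re-LCM arrays and -0.36 within the others. Its 1 probe set could not be checked against a second.

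Kcnma1, the pore of the BK channel that opens on calcium and depolarisation, had 513, 383 and 522 on the transgenic arrays and 453, 531 and 572 on the control arrays. The groups overlapped, with a difference of -0.06 (SE 0.19). Its 5 probe sets ranged from -0.37 to 0.18, and the probe set at -0.37 was lower on all transgenic arrays. Kcnn1, a small-conductance calcium-activated channel, had 34.2, 36.3 and 30.2 on the transgenic arrays, against 32.4, 66.5 and 63.4 on the control arrays. Only the control mouse 2 arrays stood apart. The difference was -0.45 with control mouse 1 and 2, -0.95 without control mouse 1 and 0.06 without control mouse 2. Kcnn2 gave 0.04, and Kcnt2, a sodium-activated channel, 0.18.

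Of the 15 inward rectifiers 7 were tested, 1 higher and 6 lower (median -0.21). Kcnj3, which encodes a subunit of the G protein-gated channel that mediates slow inhibition, had 1580, 1775 and 1628 on the transgenic arrays. Its control arrays gave 2074, 1799 and 1762. Transgenic mouse 2 array 1 exceeded control mouse 2 array 2, so the groups overlapped. The difference was -0.23 (95% interval -0.68 to 0.22, limma adjusted p = 0.999), and its 3 dimmer probe sets gave -0.09, 0.22 and 0.70. Without control mouse 1 Kcnj3 was at -0.12. Its partners Kcnj6 and Kcnj9 gave -0.08 and -0.12, and Kcnj11, the pore of the ATP-sensitive channel, gave 0.17. Kcnj4, a strong inward rectifier, gave -0.42 (SE 0.31), with 1 transgenic array under the floor.

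Kcnj13, known from epithelia such as the choroid plexus, had 17.2, 64.1 and 27.2 on the transgenic arrays and 67.3, 32.6 and 35.7 on the control arrays. The high values were on 1 array of each group, and the difference of -0.84 (95% interval -2.27 to 0.59) was the largest of the 43 in size. Without transgenic mouse 1 it was -0.20, and without transgenic mouse 2 it was -1.48. The same 2 arrays were the ones high in Ttr, the transthyretin gene of the choroid plexus. Ttr read 741, 17440 and 1118 on the transgenic arrays, against 12000, 178 and 319 on the control arrays. The 2 other choroid plexus markers listed were dim and did not single out these arrays. Folr1 read 33.5, 18.7 and 29.8 on the transgenic arrays and 19.7, 35.65 and 18.15 on the control arrays. Kl read 30.7, 34.7 and 11.6 on the transgenic arrays and 30.6, 16.7 and 16.55 on the control arrays. The choroid plexus member Kcne2 was not tested, and read 17.2, 19.15 and 1.10 on the transgenic arrays and 12.75, 2.76 and 17.8 on the control arrays. The summed level of the 3 markers was 805 to 17490 on the transgenic and 230 to 12050 on the control arrays, and the part of choroid plexus RNA in the Kcnj13 values was not tested.

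**Figure D4:**
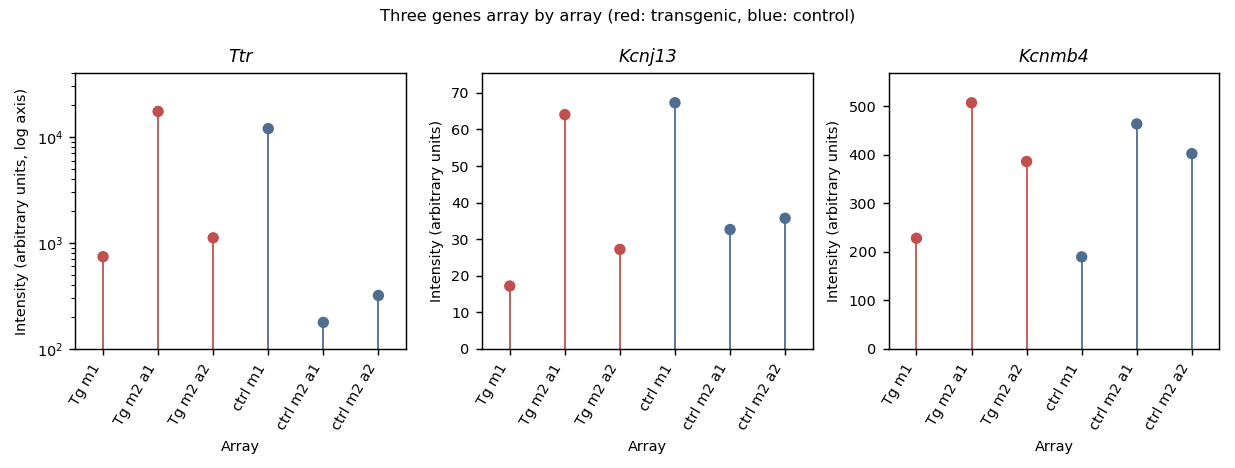
Intensity on each array, transgenic in red and control in blue, of the choroid plexus gene Ttr (log axis), of Kcnj13 and of Kcnmb4. Ttr and Kcnj13 are highest on transgenic mouse 2 array 1 and control mouse 1, and Kcnmb4 is lowest on the mouse 1 array of each group.

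Tandem-pore channels carry background potassium current, and 4 of 12 were tested, 1 higher and 3 lower (median -0.12). Kcnk1, which encodes TWIK-1, had 1657, 1735 and 1775 on the transgenic arrays and 1558, 1741 and 1547 on the control arrays. The groups overlapped and differed by 0.09 (95% interval -0.31 to 0.50). Kcnk2, which encodes the stretch-sensitive TREK-1, had 238, 238 and 214 on the transgenic arrays, against 265, 259 and 222 on the control arrays. Its difference of -0.12 (SE 0.16) left overlap between the groups. Kcnk10, the related TREK-2 gene, had 53.4, 65.8 and 69.2 on the transgenic arrays and 63.4, 102 and 68.8 on the control arrays, a difference of -0.28 (SE 0.23) that was -0.08 without control mouse 2. All 4 intervals lay within 1 log2 unit of 0.

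Auxiliary subunits had 7 of 14 genes tested, 5 higher and 2 lower (median 0.15). Kcnip4, a calcium-binding partner of Kv4 channels, had 656, 618 and 642 on the transgenic arrays. The control arrays gave 487, 510 and 522. The groups did not overlap, and the spread within each group was small beside their gap. Mean log2 intensity was 9.33 ± 0.04 in transgenic mice and 8.97 ± 0.06 in control mice (SD, n = 2 each), a 1.28-fold ratio. The difference of 0.36 (95% interval -0.04 to 0.76) was not called (limma adjusted p = 0.999). It lay between 0.32 and 0.40 with any 1 mouse or array left out. Within the re-LCM arrays it was 0.39 and within the others 0.32. Its sign could not change there, since all transgenic arrays were above all control arrays. A second Kcnip4 probe set gave 0.23 with overlap.

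Kcnip2, of the same Kv4 partner family, had 619, 673 and 481 on the transgenic arrays, against 371, 547 and 551 on the control arrays. These overlapped, and the difference was 0.40 (SE 0.24). Kcnip3 gave 0.10. The Kv1 beta subunit Kcnab1, which speeds inactivation, had 814, 720 and 794 on the transgenic arrays and 860, 671 and 891 on the control arrays, a difference of -0.05 (SE 0.16). Its relative Kcnab2 gave 0.22 at the brightest probe set. The dimmer Kcnab2 probe set read 102, 45.4 and 36.6 on the transgenic arrays, against 24.3, 36.1 and 20.4 on the control arrays, without overlap and at 1.33.

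The beta subunits of the BK channel differed among themselves. Kcnmb2, which inactivates BK current, had 40.1, 6.58 and 36.1 on the transgenic arrays, against 42.8, 50.7 and 55.9 on the control arrays. All transgenic arrays were lower, 1 of them under the floor, so the size of the difference of -0.79 (SE 0.39, limma adjusted p = 0.999) depended on the floor. With the floor at the median intensity it was -0.34, without transgenic mouse 2 it was -0.25 and without transgenic mouse 1 it was -1.32. A second Kcnmb2 probe set, which did not pass the filter, overlapped and gave -0.13. Kcnmb4, the main beta subunit of neurons, had 228, 507 and 386 on the transgenic arrays and 189, 463 and 402 on the control arrays. Its arrays split by mouse number and not by group, and the group difference was 0.15 (SE 0.52).

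Several probe sets passed the filter for 17 members, and their differences had the same sign in 9 and mixed signs in 8. The share of mixed signs over all genes was not computed. Of the 27 dimmer probe sets of members that passed, 5 (18.5%) had no overlap between groups, beside 8.29% of the 7840 dimmer probe sets of all genes. The 5 were higher for Kcnab2 (1.33) and Kcnq3 (0.31) and lower for Kcnc1 (-0.25), Kcnd1 (-0.60) and Kcnma1 (-0.37) in the transgenic mice, while the brightest probe sets of these genes overlapped. In an unfiltered fit of every probe set limma called 0 of the 158 probe sets of the members, against 0% of all 45037. The smallest limma adjusted p among them was 0.554, at the dim Kcnv1 probe set that gave -2.16. An unadjusted p under 0.05 was found for 14 of 158 (8.86%), against 6.49% of all. For the 8 members of mixed signs, the sign of the difference hung on the probe set.

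The 37 members that did not pass the filter were dim, at 0.336 to 65.5 on single arrays. Kcnk3, Kcnn3, Kcnq1 and Kcns1 were at or under the floor on all 6 arrays, 29 were above it on some arrays and 4 on all 6. Kcnip1 lay just under the filter, at a mean log2 of 4.91, and Kcnj4 just above it, at 4.99, with the threshold at 4.92. No member of the Kcne family of single-span regulators passed. Among the dim members, 2 of 37 had no overlap: Kcnk16 and Kcnk13 had all transgenic arrays above all control arrays. With no filter, 6 of the 80 members (7.5%) had no overlap in either direction, beside 7.06% of all items, so the count was near the background. Kcnk13, a leak channel known from microglia, had 16.6, 22.8 and 16.2 on the transgenic arrays, while its control arrays, at 3.88, 1.09 and 3.26, were all under the floor. Kcnk16 had 31.4, 18.4 and 17.2 on the transgenic arrays, against 15.3, 12.8 and 14.1 on the control arrays. Such values lie where background sets the reading.

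Members known from other cells of the hippocampus were set beside markers of those cells. The glial inward rectifier Kcnj10 had a difference of -0.21 (SE 0.29), with its highest value, 173, on control mouse 1, and 94.3 to 131 elsewhere. The glial gene Kcnj16, not tested, read 19.8, 31.2 and 19.1 on the transgenic arrays, against 23.7, 2.69 and 4.06 on the control arrays. Of the Kv3 genes known from fast-spiking interneurons, Kcnc1 gave 0.0013, with its highest value on transgenic mouse 2 array 1, and Kcnc2 gave -0.65 (SE 0.45), with its highest on control mouse 1. The pericyte gene Kcnj8 and the microglial gene Kcnn4 were above the floor on control mouse 1 alone, while the microglial gene Kcnk13 was above it on the 3 transgenic arrays alone. Among the members tested, Kcnj10, Kcnc2 and the choroid plexus gene Kcnj13 (-0.84) were lower and Kcnc1 was near 0, and none was called. The members not tested were dim and did not share a direction. Of the oligodendrocyte markers listed, 6 of 7 were tested and all 6 were lower in transgenic mice (median -0.73), with a summed intensity of 5321 to 7897 on the transgenic arrays and 4631 to 11390 on the control arrays, and Mog was under the floor on 3 arrays. For astrocytes 5 of 6 were tested and all 5 lower (median -0.473). Their sums were 6282 to 9136 on the transgenic and 7363 to 11090 on the control arrays. Of the microglial markers 6 of 6 were lower (median -0.305), with sums of 3003 to 3718 in transgenic and 3175 to 4510 in control arrays. Of the vascular markers 2 of 4 were tested and 2 were lower (median -0.875). Vascular sums were 102 to 130 on the transgenic and 139 to 238 on the control arrays, with Pecam1 under the floor on all 6. Of the interneuron markers 5 of 6 were lower (median -0.39), with sums of 2286 to 2393 on the transgenic and 2157 to 2618 on the control arrays. Gad1, which gave most of that sum, was the 1 that was higher (0.11), with all transgenic arrays above all control arrays. The somatostatin gene Sst read 26.1, 28.1 and 7.33 on the transgenic arrays, against 56.0, 62.0 and 57.5 on the control arrays. Sst thus also had no overlap, in the other direction, with a difference of -1.47 (limma unadjusted p = 0.00285, adjusted p = 0.999). Its value of 7.33 was under the floor, so the size of the Sst difference depended on the floor. Pyramidal cell markers, 3 of 5 lower, summed to 664 to 742 on the transgenic and 590 to 763 on the control arrays. The part of these cells in the values of the members named with them was not tested.

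Partners of potassium channels outside the Kcn genes were followed as well. Of 24 listed, 19 had a probe set with 1 symbol and 16 were tested, 8 higher and 8 lower (median 0.00019). All 3 transgenic arrays lay above all 3 control arrays for 2 of the 16, beside 3.86% of all items tested. They lay below for 0, beside 4.22%. Limma called 0 of the 16, against 0% of all items. An unadjusted p of limma under 0.05 was found for 1 of the 16, beside 4.31% of all items. That gene was Abcc8, the sulfonylurea receptor that pairs with Kcnj11 in the ATP-sensitive channel. Abcc8 read 188, 199 and 159 on the transgenic arrays, against 134, 120 and 126 on the control arrays, a difference of 0.51 (SE 0.16, limma adjusted p = 0.999). Its arrays did not overlap. The pore gene Kcnj11 had 321, 283 and 278 on the transgenic arrays and 261, 338 and 220 on the control arrays, which overlapped. Dpp6, an auxiliary protein of Kv4 channels, had 564, 584 and 589 on the transgenic arrays and 550, 545 and 498 on the control arrays, without overlap and with a difference of 0.10 (SE 0.15). The chloride exporter gene Slc12a5 gave 0.14, the pump subunit Atp1b1 0.0016 and Lgi1, a secreted modulator of Kv1 channels, 0.05.

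Genome position and promoter sequence were not used in the choice by symbol. Some members are neighbours in the genome, and their promoters vary in CG count. By the order of protein-coding genes in RefSeq for GRCm38.p6, Kcna5, Kcna1 and Kcna6 follow one another, and so do Kcnj9 and Kcnj10. Their differences were -0.0079, 0.09 and 0.17 in the Kv1 cluster and -0.12 and -0.21 in the rectifier pair. A RefSeq promoter window of the kind shown for Kcna2 was matched for 61 of the 80 members. CG dinucleotides, counted on 1 strand since the pair of letters reads the same on both, had a median of 13 per window over 31 members that passed the filter and 9 over 30 that did not. A count of 15 or more was held by 48.4% of the members that passed and 30.0% of those that did not, beside 72.4% of all genes tested and 28.7% of the other genes on the array.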

How the data were processed

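The 80 members and all lists were chosen with earlier results of these data known. The authors deposited intensities on a linear scale, 1 per probe set and array. Each array had a 2% trimmed mean of 150.001, read from the values, since no label or header used here names the program, background correction or scaling. After leaving out 64 control probe sets, values under the pooled 25th percentile (10.1) were set to it and log2 was taken. Of the probe sets, 34945 had 1 gene symbol, 932 several and 9160 none. Probe sets whose mean log2 value exceeded the median of all were tested, 1 per gene, with unnamed probe sets kept. RefSeq identifiers matched every member with no change of symbol.

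The 2 arrays of a mouse were averaged on the log2 scale and mice compared by a two-sided moderated test (limma 3.58.1, R 4.3.3), with 2 residual and 2.70 prior degrees of freedom. The number of arrays limits the precision. The p-values rest on the spread between 2 mice a group, combined with a prior variance drawn from all items. Mouse 1 had 1 array and mouse 2 the mean of 2, so the spread between mice includes that between arrays. The rule for genes given array by array took those past the threshold, those without overlap between arrays (up to 6 per direction, smallest p first), the 2 of smallest p per subunit class and Kcna1, Kcnd2, Kcnj3, Kcnma1, Kcnk1 and Kcnab1 for their known roles. It let any other member be named. Alternatives changed the normalization, floor (also the median, 34.6, or a pseudocount of 16), filter, probe set choice, unit of replication, tag, block, variance model, array weights and mice or arrays included. Mouse numbers did not pair the samples: the correlation across genes of mouse 1 minus mouse 2 between groups was 0.03.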

Additional observations from a re-analysis of the deposited data

How the results depend on the processing

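No member was called under any alternative with a test (limma, adjusted p of the members from 0.235 upward, the lowest with the mouse as a random block, where arrays of a mouse correlated at -0.54 and 8 of 43 members had an unadjusted p under 0.05, beside 12.1% of all items). Within the other arrays, with 1 mouse a group, no test could be made. The members' median, -0.0079, was -0.0422 with quantile normalization, -0.0268 with the floor at the median, -0.0546 with a pseudocount of 16, 0.0805 with a filter at the 75th percentile, -0.0452 with the mean of the probe sets that pass and -0.0548 with the choice by linear intensity. It was -0.0184 with 6 separate arrays, -0.0348 with the random block, -0.0435 with the tag as a term, 0.0227 within the re-LCM arrays, -0.0896 within the others and -0.0235 with array weights. Leaving out a mouse gave -0.0817 (without transgenic mouse 1) to 0.0213 (without control mouse 1). Leaving out 1 array of a mouse 2 gave -0.0102 and -0.0662 for control and -0.0419 and 0.04 for transgenic arrays. The mouse numbers paired no samples, and with them as a replicate block the median was again -0.0079 and 0 members were called. The count without overlap, 4, was 2 with the filter at the 75th percentile (9.09%, beside 6.87% of all items), 27 within the re-LCM arrays (62.8%, beside 64% of all) and 28 within the others (65.1%, beside 63.1%). It was 5 to 20 without a mouse and 9, 9, 10 and 9 without an array. Fewer arrays overlap less often by construction.

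Differences changed sign for Kcnd2 (-0.0685) and Kcnj3 (0.149) with the mean of the probe sets that pass, for Kcnab1 within the other arrays (0.0387) and for Kcnn1 within the re-LCM arrays (0.122). Over mice left out, Kcnab1 ran from -0.131 to 0.0216, Kcnma1 from -0.202 to 0.0813 and Kcnn1 from -0.948 to 0.0555. Kcnab1 was 0.0476 without array 2 of control mouse 2, and Kcnma1 0.0514 without array 1 of transgenic mouse 2. The cause was not tested. The other 11 genes given array by array kept their sign in each alternative that gave a value. For those without overlap between groups, leaving out arrays or taking part of them could not change the sign. Low intensity limits the 37 dim members, and 2 mice a group limit all of them.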

Other observations

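Kcnmb4 followed the mouse number in both groups. The difference of mouse 1 minus mouse 2 was -0.96 in the transgenic and -1.19 in the control group, the largest mean of the 43 members. Both mouse 1 arrays lay outside the range of the 4 mouse 2 arrays for 3 members (6.98%), Kcnmb4, Kcnd1 and Kcnk10, beside 13.7% of all items tested. The array of control mouse 1 and that of transgenic mouse 1 carried the tag re-LCM, but so did array 1 of transgenic mouse 2, where Kcnmb4 read its highest value, 507.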
